A study of Mus musculus with 8 samples.

Results

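Depp1, Pdk4, Cpt1a, Angptl4, Fkbp5, Tsc22d3, Sgk1, Klf9 and Zbtb16 are genes that fasting or glucocorticoid hormones are known to raise in many tissues, and they were read here in the colonic mucosa of mice with chemically induced colitis. The 9 genes were taken by symbol from tables of 17353 genes, and all 9 were among the 13381 genes with enough reads to be tested. They were chosen by symbol, with the fold changes and p-values of the same counts already known, so their levels and differences are given as a description and support no test. The tissue came from 8 wild-type male C57BL/6J mice, 2 in each of 4 groups, killed on day 7, and every animal of every group received an enema of 0.2 ml. Controls had saline enemas and no dextran sulfate sodium (DSS), a polymer that injures the colonic epithelium when drunk. The DSS model group drank 3% DSS and had saline enemas, the mesalazine group drank DSS and had enemas of mesalazine at 50 mg/kg, and the Kuiyangling group drank DSS and had enemas of this herbal formula at 10 g/kg. Mesalazine is an anti-inflammatory aminosalicylate used in ulcerative colitis. The age and food intake of the animals and the hour at which they were killed are not given in the sources used here.

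Fasting lowers insulin, which lets the FOXO transcription factors enter the nucleus, and raises circulating fatty acids, which are ligands of the nuclear receptors PPAR-alpha, PPAR-delta and PPAR-gamma. It also raises glucocorticoids, which act through the glucocorticoid receptor. Depp1, whose product was named for its induction by progesterone in decidual cells, is a FOXO target that is induced by fasting and known for expression in endothelium and fat. Pdk4, Cpt1a and Angptl4 belong to the PPAR-driven switch from glucose to fat as fuel, and Fkbp5, Tsc22d3, Sgk1, Klf9 and Zbtb16 are classical glucocorticoid-induced genes. The colonic epithelium burns butyrate made by bacteria, so genes of fat oxidation are active there in the fed state as well.

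The stretches upstream of 3 of these genes are shown because they hold, or lack, the fixed motifs searched here for the 3 classes of factor. RefSeq promoters (mouse build GRCm38.p6) were found for 7 of the 9 genes, at 14 start sites, and the 250 bases before each start were searched on both strands. Angptl4 and Zbtb16 had no entry in that table. The motifs were the glucocorticoid response element, made of AGAACA and TGTTCT 3 bases apart with up to 2 mismatches, its right arm TGTTCT alone, the FOXO site TGTTTAC, the insulin response letters TGTTTTG, and the PPAR direct repeat of AGGTCA and AGGTCA 1 base apart with up to 2 mismatches. The arm lies within the response element, so matches of the pair overlap. In the sequences below, read 5′ to 3′ on the strand of the gene, capitals mark a match.
Depp1, chr6:116650434-116650683, plus strand: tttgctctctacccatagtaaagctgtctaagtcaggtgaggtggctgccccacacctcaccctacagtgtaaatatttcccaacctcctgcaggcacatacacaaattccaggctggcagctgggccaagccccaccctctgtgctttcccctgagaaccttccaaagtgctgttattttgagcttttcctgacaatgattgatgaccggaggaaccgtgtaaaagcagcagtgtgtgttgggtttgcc
Sgk1, start site 5, chr10:21993640-21993889, plus strand: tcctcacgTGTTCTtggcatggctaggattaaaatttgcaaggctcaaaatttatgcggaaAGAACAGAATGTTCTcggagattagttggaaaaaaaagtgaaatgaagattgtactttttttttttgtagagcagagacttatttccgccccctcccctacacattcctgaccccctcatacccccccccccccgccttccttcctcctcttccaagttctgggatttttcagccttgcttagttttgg
Klf9, chr19:23140976-23141225, plus strand: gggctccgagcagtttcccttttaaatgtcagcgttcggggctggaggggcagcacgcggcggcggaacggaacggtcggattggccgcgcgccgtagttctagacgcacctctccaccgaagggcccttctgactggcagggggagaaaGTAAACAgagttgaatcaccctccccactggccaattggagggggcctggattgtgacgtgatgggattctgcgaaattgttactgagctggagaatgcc

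The Depp1 window held none of the 5 motifs, and neither did those of Pdk4 and Fkbp5. The Sgk1 window held the full glucocorticoid response element without a mismatch, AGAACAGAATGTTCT, at bases -189 to -175 from the start, and the arm TGTTCT once more at -242 to -237. Among 32851 promoters of the same length, 1.56% held the element with up to 2 mismatches and 16.1% held the arm. These shares are per promoter, and Sgk1 had 6 of the 14 windows searched. Start site 3 of Sgk1 held an element with 2 mismatches, and start sites 2 and 6 held none of the 5 motifs. The Klf9 window held the FOXO site on the minus strand, printed as GTAAACA, at -100 to -94, and 3.17% of promoters held that site. Cpt1a held the insulin response letters at -219 to -213, letters that 5.56% of promoters held, and start site 2 of Tsc22d3 held the arm at -185 to -180. No start site of these genes held the PPAR direct repeat, which 3.24% of promoters held. A match describes letters in a window and says nothing of binding, and a window without a match says only that these letters are not in it. The FOXO and insulin response letters were searched without a mismatch. Variant forms of either were not searched and may be present in a window without a match, that of Depp1 included.

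The libraries held 15560946 to 17843715 counts each and reads of 15217 to 15689 genes. Mesalazine replicate 1 and control replicate 2 stood apart from the other libraries: their mean Spearman correlations with the rest were 0.940 and 0.945, against 0.963 to 0.974 elsewhere. Ribosomal protein genes took 12.7% of the counts of mesalazine replicate 1 and at most 6.68% in any other library. Several, not all, of the values that rest on mesalazine replicate 1 or control replicate 2 are also given without that library. All 8 epithelial markers were detected in every library, with summed levels of 26120 to 34240 CPM (counts scaled to a common library size, adjusted by TMM). Single markers were less even than the sum: Slc26a3 spanned 186 to 1038 CPM, Car1 3280 to 12515 and Muc2 3950 to 12855, while Epcam spanned 2098 to 2942. Neutrophil markers summed to 0.743 to 1.60 CPM in controls, 40.8 to 83.7 in the DSS model, 13.8 to 29.7 with mesalazine and 11.0 to 11.4 with Kuiyangling. In controls 3 or 4 of the 6 neutrophil markers were at 0, with S100a9, Cxcr2 and Retnlg at 0 in both libraries. In bulk tissue, fewer cells of a type and less RNA per cell cannot be told apart. The replicates were separate animals of each group, as the design states.

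Levels between genes were compared as FPKM, the deposited level scaled for gene length and library size. Fkbp5, the immunophilin that restrains the glucocorticoid receptor, had the highest mean over the 8 libraries at 80.2 FPKM. Cpt1a followed at 76.9 FPKM and Sgk1 at 72.4, and the libraries of these neighbours overlapped. Tsc22d3 averaged 15.2 FPKM, Klf9 10.3, Pdk4 6.69, Depp1 4.16 and Angptl4 2.40. Zbtb16 was lowest at 0.144 FPKM, below all but 3.90% of the genes tested. Depp1 therefore sat in the lower part of the range in level (percentile 42.6 among tested genes), while the spread of its log2 CPM over the libraries was at percentile 99.2. Its highest library stood 29.0-fold above its lowest, against 1.71-fold for Cpt1a, the steadiest of the 9.

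**Figure D1:**
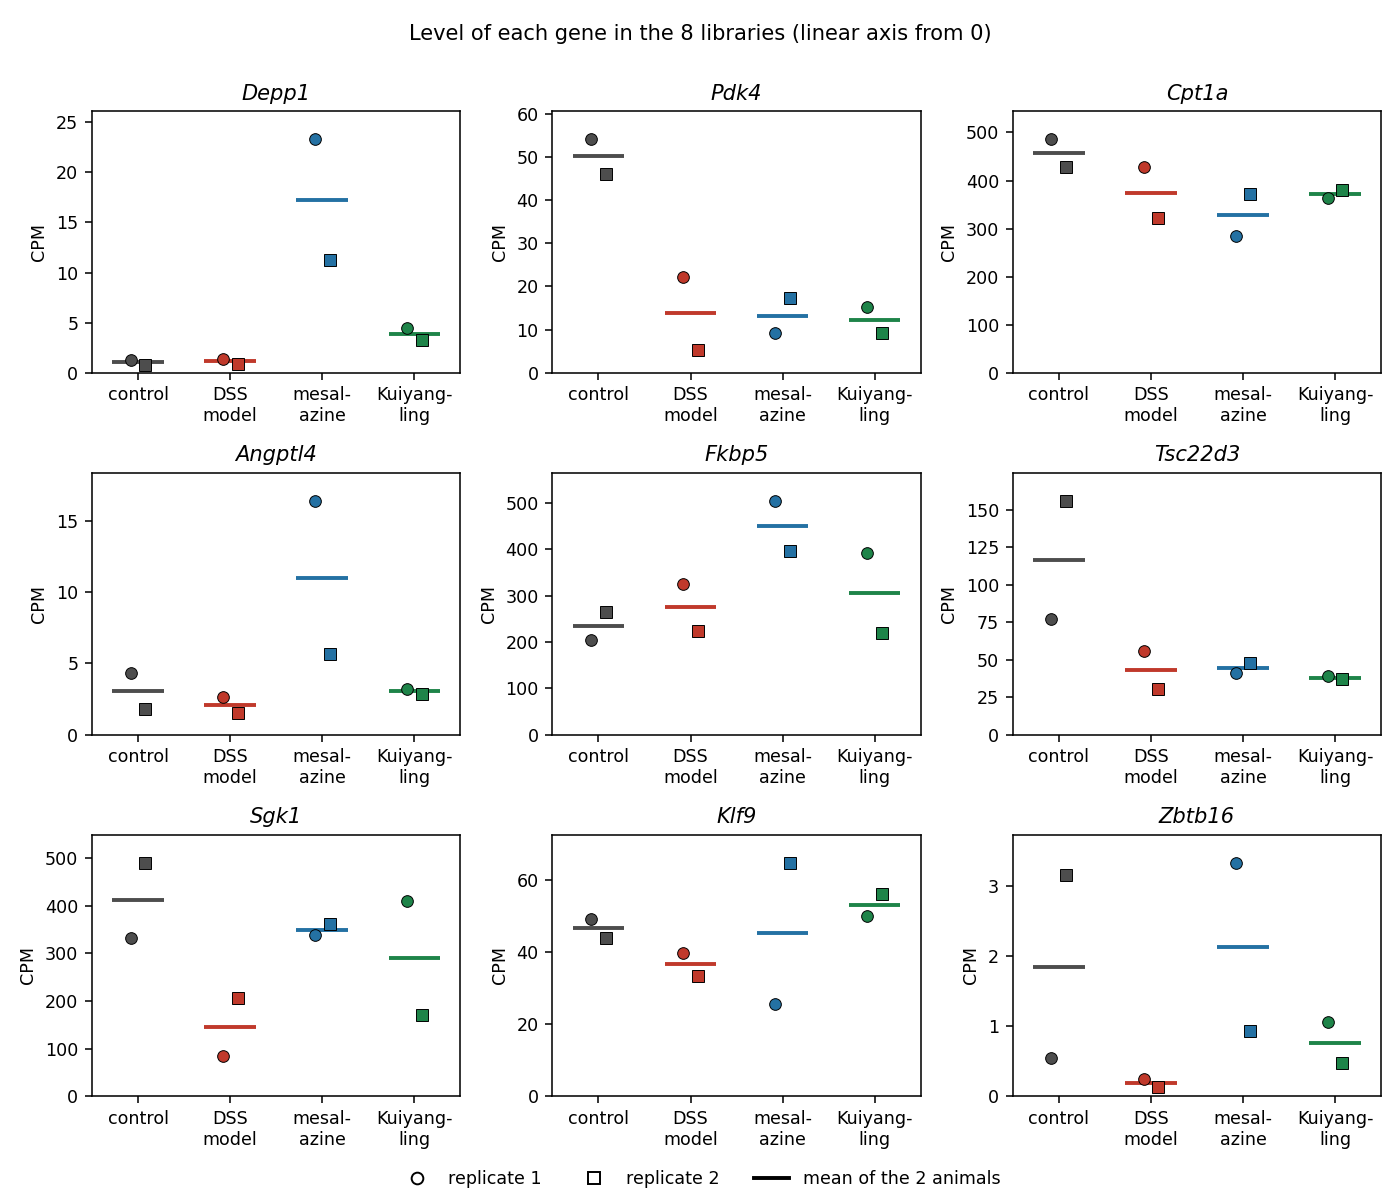
CPM (y axis, linear from 0) of each of the 9 genes in the 8 libraries, by group on the x axis; circles are replicate 1, squares replicate 2, bars the mean of 2 animals. Depp1 and Angptl4 are highest in both mesalazine libraries, Pdk4 and Tsc22d3 in both control libraries, and Cpt1a varies least.

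Depp1 was low in controls and in the DSS model and high after mesalazine. The control libraries held 1.29 and 0.802 CPM, and those of the DSS model 1.38 and 0.928 CPM. The mesalazine libraries held 23.3 and 11.3 CPM, and those of Kuiyangling 4.52 and 3.32 CPM. Both mesalazine libraries thus lay above both Kuiyangling libraries, which lay above all 4 others, while controls and DSS model overlapped. The group means were 17.3 ± 8.50 CPM with mesalazine, 3.92 ± 0.845 with Kuiyangling, 1.16 ± 0.322 in the DSS model and 1.04 ± 0.344 in controls (SD, n = 2 each). These levels rest on 522 reads over the mesalazine group, 137 with Kuiyangling, 36 in the DSS model and 39 in controls.

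The fitted log2 change of Depp1 was 3.89 ± 0.51 (SE) for mesalazine against the DSS model and 1.75 ± 0.49 for Kuiyangling against the DSS model. Kuiyangling against mesalazine gave -2.14 ± 0.46. DSS alone gave 0.14 ± 0.52 against controls, a difference smaller than its error, and its sign turned under some settings. Depp1 had the lowest p of all genes in mesalazine against the DSS model without being called there (edgeR adjusted p = 0.203), and that rank was known when the genes were listed. Without mesalazine replicate 1, the log2 change against the DSS model was 3.26, and that of Kuiyangling against mesalazine was -1.53. Depp1 and Angptl4 are the shortest of the 9 genes in the deposited tables, at 1317 and 1903 bases, and libraries differed in their balance of short and long genes. The Spearman correlation between gene length and a library's deviation from the others, over all tested genes, was -0.53 in mesalazine replicate 1 and 0.28 in mesalazine replicate 2. It was -0.10 and -0.43 in the DSS model, 0.44 and 0.27 in controls, and -0.02 and 0.39 with Kuiyangling. With an offset for gene length, the change for mesalazine was 3.72 against the DSS model, and against controls it went from 4.02 to 3.46.

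Endothelial cells are known to express Depp1. All 6 endothelial markers were in the table, and their summed level was 17.3 CPM in mesalazine replicate 1 but 6.71 in mesalazine replicate 2. That second library was within 5.79 to 9.48 CPM, the range of the controls and the DSS model, while its Depp1 level was above every library of those groups. Both Kuiyangling libraries had a higher endothelial sum than mesalazine replicate 2, at 20.2 and 14.6 CPM, and a lower Depp1 level. Cdh5 was at 0 in control replicate 2, and no other endothelial marker was at 0 in any library. Of 5 adipocyte markers in the table, 2 or 3 were at 0 in every library but control replicate 1, and Retn was at 0 in every treated library. Cidec made up most of the sum of 18.7 to 37.7 CPM across all groups. That sum was 37.7 and 21.6 CPM with mesalazine and 36.1 and 18.7 with Kuiyangling. Fabp4 averaged 6.78 ± 8.02 CPM with mesalazine and 4.22 ± 2.52 with Kuiyangling (SD). It averaged 2.78 ± 2.16 in the DSS model and 1.81 ± 1.78 in controls, and its libraries overlapped between all groups. The part of these cells in the Depp1 level was not tested beyond these values.

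Pdk4, the kinase that shuts pyruvate dehydrogenase and so spares glucose, was high only in the controls. Its control libraries held 54.1 and 46.1 CPM. The DSS model held 22.2 and 5.30, mesalazine 9.20 and 17.2, and Kuiyangling 15.4 and 9.14. Every library of the 3 DSS groups lay below both controls, and those groups overlapped each other. Against controls, the log2 change was -1.86 ± 0.58 for the DSS model, -1.92 ± 0.58 for mesalazine and -2.03 ± 0.58 for Kuiyangling. Against the DSS model, mesalazine gave -0.06 ± 0.57 and Kuiyangling -0.17 ± 0.57, both within their error. The 2 DSS model libraries differed 4.19-fold, so without DSS model replicate 1 the change from controls was -3.24 and without replicate 2 it was -1.17.

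Cpt1a, the outer mitochondrial enzyme that commits long-chain fatty acids to oxidation, varied little. It held 486 and 428 CPM in controls, 428 and 322 in the DSS model, 284 and 373 with mesalazine, and 363 and 380 with Kuiyangling. The controls were the highest libraries, with DSS model replicate 1 just below control replicate 2. The largest fitted log2 change was -0.48 ± 0.29, for mesalazine against controls, and it was -0.29 without mesalazine replicate 1.

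Angptl4, the secreted inhibitor of lipoprotein lipase, had its 2 highest libraries after mesalazine, at 16.4 and 5.66 CPM. Controls held 4.31 and 1.79 CPM, the DSS model 2.64 and 1.52, and Kuiyangling 3.22 and 2.86. Mesalazine lay above every other library, Kuiyangling lay above the DSS model, and Kuiyangling was within the range of the controls. The log2 change for mesalazine was 2.40 ± 0.61 against the DSS model and 1.84 ± 0.59 against controls. Without mesalazine replicate 1, these values were 1.43 and 0.88. Kuiyangling against the DSS model gave 0.54 ± 0.61.

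Fkbp5 was highest after mesalazine, at 504 and 398 CPM. Kuiyangling held 393 and 219 CPM, the DSS model 326 and 224, and controls 204 and 264. The mesalazine libraries lay above all 6 others, though Kuiyangling replicate 1 came close to mesalazine replicate 2. The log2 change for mesalazine was 0.72 ± 0.35 against the DSS model and 0.95 ± 0.36 against controls, and it was 0.52 and 0.76 without mesalazine replicate 1. Without DSS model replicate 2 the first was 0.47. Kuiyangling against the DSS model gave 0.16 ± 0.35, within its error.

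Tsc22d3, which encodes the anti-inflammatory leucine zipper protein GILZ, had the opposite arrangement and was high in controls only. Controls held 77.2 and 156 CPM, the DSS model 56.0 and 30.4, Kuiyangling 38.9 and 37.1, and mesalazine 40.9 and 47.8. All 6 libraries of DSS-drinking mice lay below both controls. Against controls, the log2 change was -1.43 ± 0.39 for the DSS model, -1.39 ± 0.39 for mesalazine and -1.62 ± 0.39 for Kuiyangling. Control replicate 2 held the higher of the control levels, and without it the values were -0.84, -0.80 and -1.02. Neither treatment differed from the DSS model by more than its error, at 0.04 ± 0.38 for mesalazine and -0.19 ± 0.38 for Kuiyangling.

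Sgk1, the kinase that keeps epithelial sodium channels at the cell surface, was lowest in the DSS model. That group held 85.1 and 206 CPM, controls 333 and 490, mesalazine 337 and 360, and Kuiyangling 409 and 170. The DSS model did not overlap controls or mesalazine, and it overlapped Kuiyangling through Kuiyangling replicate 2. The log2 change was -1.50 ± 0.49 for the DSS model against controls, 1.26 ± 0.49 for mesalazine against the DSS model and 0.99 ± 0.49 for Kuiyangling against the DSS model. Mesalazine against controls gave -0.24 ± 0.48, within its error. Of the 6 upstream windows of Sgk1, the 1 printed above held the full glucocorticoid response element without a mismatch. The 2 DSS model libraries differed, and the change from controls was -0.99 without DSS model replicate 1 and -2.27 without replicate 2. For mesalazine against the DSS model the same omissions gave 0.76 and 2.03, and for Kuiyangling 0.49 and 1.76. Kuiyangling against the DSS model was also 0.19 without Kuiyangling replicate 1 and 1.49 without Kuiyangling replicate 2.

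Klf9, a zinc finger repressor induced by glucocorticoids, differed little between group means. Controls held 49.1 and 43.9 CPM, the DSS model 39.6 and 33.4, Kuiyangling 49.9 and 55.9, and mesalazine 25.7 and 64.7. The DSS model lay below controls and Kuiyangling without overlap, but the lowest and highest libraries were both of the mesalazine group. The log2 change for mesalazine against the DSS model was 0.31 ± 0.38. It was 0.82 without mesalazine replicate 1 and -0.51 without mesalazine replicate 2.

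Zbtb16, which encodes the transcription factor PLZF, was close to the limit of detection. It had 11 and 51 reads in controls, 4 and 2 in the DSS model, 47 and 16 with mesalazine, and 17 and 9 with Kuiyangling. In CPM these were 0.545 and 3.14, 0.252 and 0.133, 3.33 and 0.934, and 1.05 and 0.467. The DSS model libraries were the lowest of all 8, and within each of the other groups the 2 animals differed by 2.25-fold to 5.77-fold. The log2 change was -3.19 ± 1.06 for the DSS model against controls and 3.40 ± 1.06 for mesalazine against the DSS model. On the log2(FPKM + 1) scale, where so low a gene can hardly move, the same values were -0.26 and 0.26. Without control replicate 2 the first was -1.46, and without mesalazine replicate 1 the second was 2.22. Control replicate 2, its highest control library, also held the highest sum of skeletal muscle markers, a tissue in which Zbtb16, Pdk4 and Tsc22d3 are known to respond to glucocorticoids. That sum was 229 CPM there and 34.8 to 63.8 elsewhere, from Eno3 and Acta1, while Ckm was at 0 in control replicate 2 and at most 0.309 CPM in any library. The part of such cells in these genes was not tested.

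**Figure D2:**
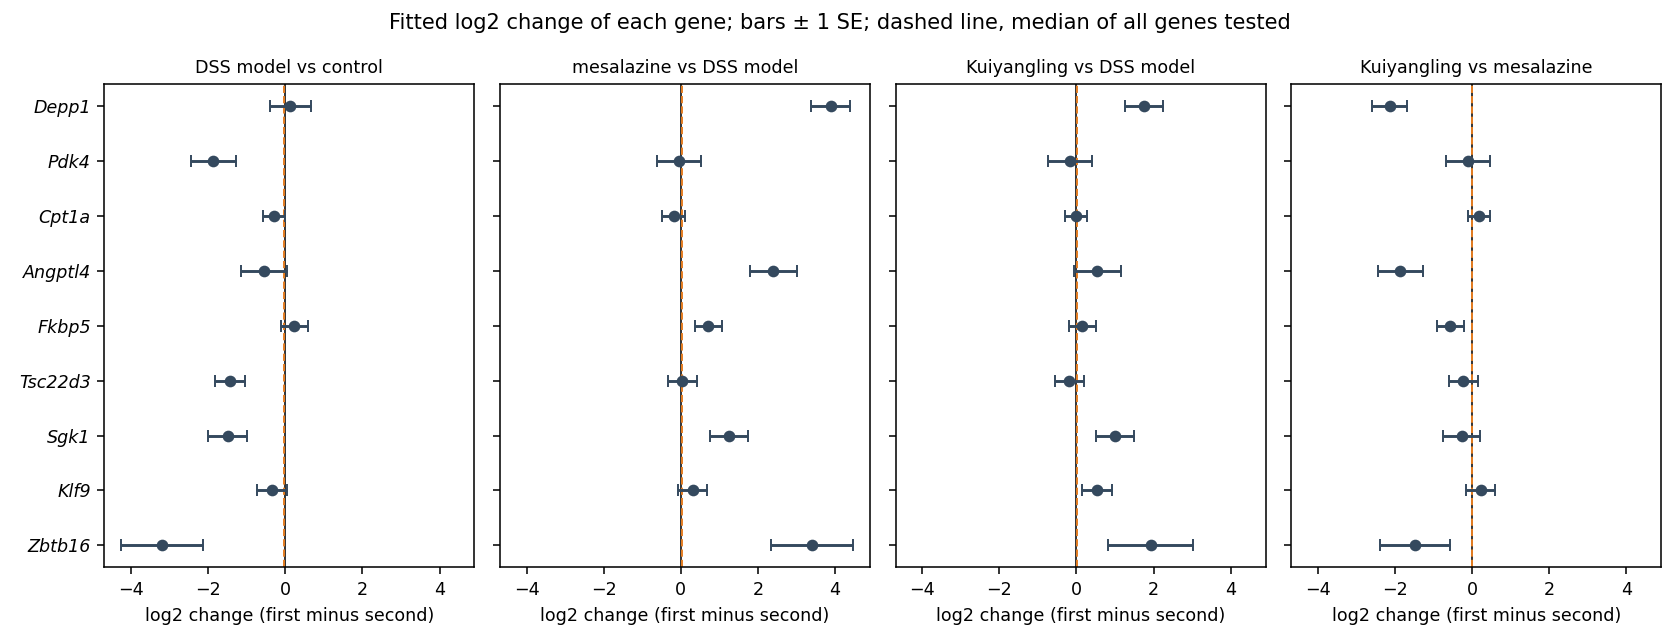
Fitted log2 change (x axis) of each of the 9 genes in 4 comparisons, with bars of 1 SE; the dashed line is the median of all tested genes. Depp1, Angptl4 and Zbtb16 lie to the right for mesalazine against the DSS model, and Pdk4, Tsc22d3, Sgk1 and Zbtb16 lie to the left for the DSS model against controls.

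Counted over the 9 genes, DSS against controls lay below 0 for 7, with a median log2 change of -0.55 against -0.04 for all genes. The libraries did not overlap for 6, all lower in the DSS model, where 53.4% of all genes did not overlap. A gene was called at an edgeR adjusted p under 0.05, which 0 of the 9 and 0.247% of all genes reached, while 4 of the 9 and 14.8% of all genes had an unadjusted p under 0.05. DESeq2 called 3 of the 9, Pdk4, Tsc22d3 and Sgk1, and 2.97% of all genes. With 2 animals against 2, an exact permutation test of 1 gene cannot go below p = 0.33 two-sided, so only the fit over all genes bears on a call.

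Markers of other cells moved in the same comparison. All 6 fibroblast markers lay above 0 for the DSS model against controls, each at an unadjusted p under 0.05, with a median log2 change of 2.06, and edgeR called 0. Their sum was 10.2 to 31.5 CPM in controls, 74.4 to 121 in the DSS model, 82.2 to 143 with mesalazine and 158 to 201 with Kuiyangling. All 6 smooth muscle markers lay below 0, with a median of -1.88 and 4 at an unadjusted p under 0.05. Their sum overlapped between controls, at 24.0 to 85.2 CPM, and the DSS model, at 13.8 to 31.8, and was 13.1 to 43.8 with mesalazine and 53.5 to 56.8 with Kuiyangling. Of 6 B and plasma cell markers 5 lay below 0, with a median of -2.71 and 3 at an unadjusted p under 0.05. Their sum was 81.8 to 83.3 CPM in controls, 39.9 to 120 in the DSS model, at most 44.9 with mesalazine and 39.8 to 48.9 with Kuiyangling. No fibroblast or smooth muscle marker was at 0 in any library. Of 5 neutrophil markers tested, edgeR called 4, all higher in the DSS model. The part of these cells in the lower levels of Pdk4, Tsc22d3, Sgk1 and Zbtb16 was not tested.

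For mesalazine against the DSS model, 7 of the 9 lay above 0 and the median was 0.72 against 0.04 for all genes. The libraries did not overlap for 5, all higher with mesalazine (Depp1, Angptl4, Fkbp5, Sgk1 and Zbtb16), where 27.7% of all genes did not overlap. Of the 9, 0 were called by edgeR, as were 0% of all genes, with 4 at an unadjusted p under 0.05 against 5.49% of all genes. DESeq2 called 2, Depp1 and Angptl4, and 0.641% of all genes. For Kuiyangling against the DSS model, 6 lay above 0, with a median of 0.54 against 0.00, and 4 did not overlap, all higher, where 43% of all genes did not overlap. Depp1, Angptl4, Klf9 and Zbtb16 made up that count. Here too edgeR called 0 of the 9 and 0% of all genes, with 1 at an unadjusted p under 0.05 against 3.56% of all genes, and DESeq2 called 0 and 0.076% of all genes.

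Directly compared, Kuiyangling lay below mesalazine for 7 of the 9, with a median of -0.27 against 0.00. The libraries did not overlap for 4, Depp1, Angptl4, Fkbp5 and Tsc22d3, all lower with Kuiyangling, where 22.1% of all genes did not overlap. By edgeR 0 of the 9 and 0% of all genes were called, with 2 at an unadjusted p under 0.05 against 1.9% of all genes, and DESeq2 called 0 and 0% of all genes. Mesalazine against controls left 3 genes higher without overlap (Depp1, Angptl4 and Fkbp5) and 3 lower (Pdk4, Cpt1a and Tsc22d3), where 45.7% of all genes did not overlap. Of the 9, 1 was called there, Depp1, at a log2 change of 4.02 ± 0.51 (edgeR adjusted p = 0.0216), where 0.673% of all genes were called. At an unadjusted p under 0.05 were 5 of the 9 and 20% of all genes, and DESeq2 called 4 (Depp1, Pdk4, Angptl4 and Tsc22d3) and 7.19% of all genes. The edgeR call of Depp1 was lost without control replicate 2 (3.73, edgeR adjusted p = 0.173) and without mesalazine replicate 1 (3.41, edgeR adjusted p = 0.0902). Kuiyangling against controls left 2 genes higher (Depp1 and Klf9) and 3 lower (Pdk4, Cpt1a and Tsc22d3), where 49.1% of all genes did not overlap. Of the 9, 0 were called there by edgeR against 0.239% of all genes, with 3 at an unadjusted p under 0.05 against 10.3% of all genes, and DESeq2 called 3 (Depp1, Pdk4 and Tsc22d3) and 2.33% of all genes. The comparisons with the DSS model share its libraries, and those with controls share theirs, so they are not independent of each other.

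The 15 genes listed as acting on these genes encode factors, coactivators and steroid enzymes. All had reads in every library, though Hsd11b1 went down to 0.198 CPM, close to the limit of detection. By edgeR 0 of the 15 were called in any of the 6 comparisons, with 0 to 3 at an unadjusted p under 0.05. DESeq2 called 1 for the DSS model against controls, Ppargc1a, and 1 for mesalazine against controls, Ppargc1b. Of all genes, 1.9% to 20% had an unadjusted p under 0.05 in these 6 comparisons, and DESeq2 called 0% to 7.19%. The counts of the lists below stand beside the same shares. The glucocorticoid receptor Nr3c1 held 58.5 to 173 CPM, with its lowest and highest library both in the mesalazine group, and the mineralocorticoid receptor Nr3c2 held 65.3 to 127 CPM. Hsd11b2, the enzyme that inactivates glucocorticoids in aldosterone target tissue, was abundant at 260 to 731 CPM, and Hsd11b1, which regenerates them, stayed at 0.198 to 2.90 CPM. Ppargc1a, a coactivator of PPAR and FOXO factors, held 41.1 and 47.4 CPM in controls, 16.1 and 11.8 in the DSS model, 15.9 and 40.2 with mesalazine, and 27.4 and 30.5 with Kuiyangling. Its log2 change for the DSS model against controls was -1.66 ± 0.40 without being called (edgeR adjusted p = 0.135). Ppara held 32.1 and 30.9 CPM in the DSS model, 55.6 and 72.4 with mesalazine, and 60.2 and 51.8 with Kuiyangling, but its controls spanned 25.6 to 53.2. Foxo3 was highest in controls, at 135 and 254 CPM, against 60.6 to 130 in the other 3 groups. Foxo1 overlapped between controls and treated groups, at 19.0 to 53.2 CPM overall.

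Of 22 relatives of the 9 genes, 19 were tested, and 0 were called in any comparison by edgeR, with at most 1 at an unadjusted p under 0.05, or by DESeq2. The other kinases of pyruvate dehydrogenase had mean levels of 14.7 FPKM for Pdk1, 20.5 for Pdk2 and 3.43 for Pdk3, on either side of the 6.69 FPKM of Pdk4. Cpt1b, the muscle form of Cpt1a, held 2.77 to 9.56 CPM and was highest in both controls. Fkbp4, the co-chaperone that works against Fkbp5 on the same receptor, held 187 to 326 CPM. Lpl, which encodes the lipase that the Angptl4 protein inhibits, held 9.62 to 50.1 CPM over the libraries.

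Other genes of the same pathways, from lists written with results of these data known, are described by their counts. Of 22 other FOXO targets tested, 18 lay below 0 for the DSS model against controls, with a median of -0.40. Above 0 lay 15 for mesalazine against the DSS model (median 0.22) and 18 for Kuiyangling (median 0.28). By edgeR 0 were called in any comparison, with 1 to 6 at an unadjusted p under 0.05, and DESeq2 called 0 to 2. Sesn1, a stress-induced inhibitor of mTORC1 signalling, held 18.2 and 15.8 CPM in controls, 12.0 and 16.4 in the DSS model, 37.4 and 34.9 with mesalazine, and 21.8 and 24.3 with Kuiyangling. The treated libraries lay above all others, mesalazine highest, and the log2 change for mesalazine against the DSS model was 1.35 ± 0.27 (edgeR adjusted p = 0.363). Fbxo32, the muscle atrophy ubiquitin ligase, and Trib1 were highest in control replicate 2, at 164 and 170 CPM.

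Of 26 PPAR targets and fat oxidation genes tested, 15 lay above 0 for mesalazine against the DSS model, with a median of 0.10, and 15 for Kuiyangling, with a median of 0.03. Acaa1b, a peroxisomal thiolase of fatty acid oxidation, was the 1 gene of this list called by edgeR, which had 1 to 4 at an unadjusted p under 0.05. DESeq2 called Acaa1b and Vnn1 in each of the 3 comparisons with controls and 0 in the others. Acaa1b held 9.91 and 7.03 CPM in controls, 15.1 and 25.9 in the DSS model, 53.9 and 41.6 with mesalazine, and 44.4 and 34.9 with Kuiyangling. Acaa1b rose against controls by a log2 change of 2.49 ± 0.35 with mesalazine (edgeR adjusted p = 0.0268) and 2.22 ± 0.35 with Kuiyangling (edgeR adjusted p = 0.0429). The first of these calls was lost without control replicate 2 (edgeR adjusted p = 0.211) or mesalazine replicate 1 (edgeR adjusted p = 0.0902). The second was lost when any 1 of 5 libraries was left out, with edgeR adjusted p of 0.0532 to 0.314. Acaa1b has a near-identical copy, Acaa1a, and how reads shared by the pair were counted is not given in the sources used here.

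Of 20 other glucocorticoid-induced genes, 9 lay above 0 for mesalazine against the DSS model and 11 below, with a median of -0.30. By edgeR 0 were called in any comparison, with 0 to 8 at an unadjusted p under 0.05. The 8 were for mesalazine against controls, where 20% of all genes had such a p. DESeq2 called 3 for mesalazine against the DSS model, Mt1, Mt2 and Hif3a, and 0.641% of all genes. For mesalazine against controls it called 5 (Mt1, Mt2, Cdkn1c, Rgs2 and Rhob) and 7.19% of all genes. It called Cdkn1c and 2.33% of all genes for Kuiyangling against controls, and 0 of the list in the other 3 comparisons. The metallothioneins stood highest in mesalazine replicate 1, with Mt1 at 2283 CPM and Mt2 at 1087, and Mt1 held 654 in mesalazine replicate 2. Mt2 held 44.3 and 161 CPM in the DSS model and 274 and 340 with Kuiyangling. Hif3a held 12.5 and 6.89 CPM with mesalazine, 8.54 and 4.26 with Kuiyangling, 2.89 and 2.25 in the DSS model, and 3.62 and 4.62 in controls. Cdkn1c, a cell cycle inhibitor, held 12.3 and 13.9 CPM in controls and 21.9 to 45.2 in the other 3 groups.

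Of 8 genes of aldosterone response and sodium absorption, edgeR called 0 in any comparison, with 0 to 2 at an unadjusted p under 0.05 and 0 to 2 called by DESeq2, and 5 lay below 0 for the DSS model against controls, with a median of -0.30. Scnn1a, a subunit of the sodium channel that Sgk1 acts on, held 62.1 and 249 CPM in controls, 66.0 and 33.8 in the DSS model, 25.1 and 31.8 with mesalazine, and 46.5 and 46.9 with Kuiyangling. Unlike Sgk1, it was not higher in either mesalazine library than in the DSS model. Scnn1g held 7.09 CPM in control replicate 2 and at most 2.60 in any other library.

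**Figure D3:**
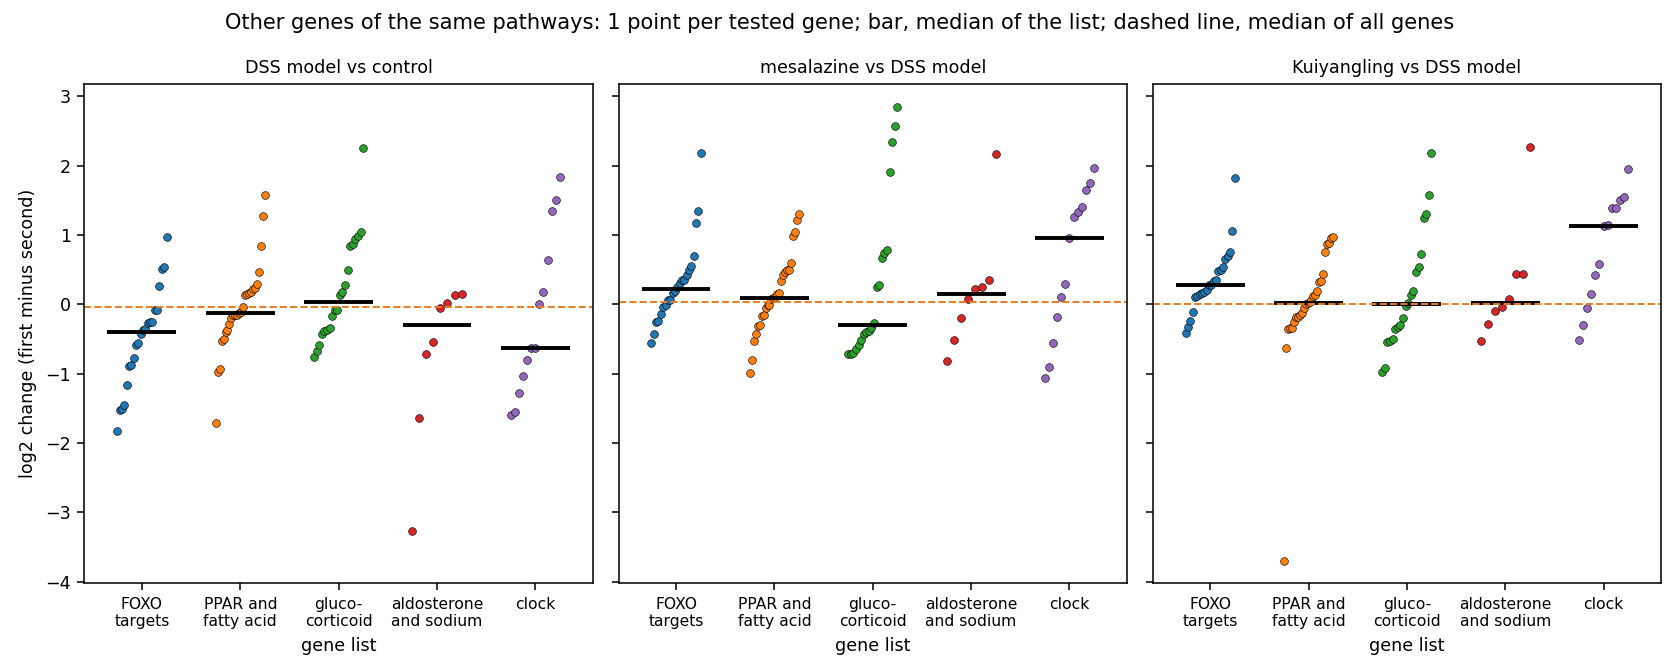
Fitted log2 change (y axis) of every tested gene of 5 lists in 3 comparisons, 1 point a gene; thick bars are list medians and the dashed line the median of all tested genes. The median of the clock list lies at 0.96 for mesalazine and 1.13 for Kuiyangling against the DSS model.

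Circadian clock genes were listed because glucocorticoid and fasting genes are known to cycle over the day. This list too was written with results of these data known, so its counts are a description and support no test. Of 13 clock genes tested, edgeR called 4 for mesalazine against controls and 2 for Kuiyangling against controls, where 0.673% and 0.239% of all genes were called, and 0 in the other 4 comparisons. Over the 6 comparisons 1 to 10 had an unadjusted p under 0.05. DESeq2 called 7 and 5 for mesalazine and Kuiyangling against controls, 5 for the DSS model against controls, 3 and 2 for mesalazine and Kuiyangling against the DSS model, and 0 between the treatments. Dbp, a clock output factor, held 2.87 and 2.90 CPM in controls, 6.98 and 9.41 in the DSS model, 32.3 and 31.9 with mesalazine, and 37.5 and 26.1 with Kuiyangling. It rose against controls by 3.47 ± 0.32 on the log2 scale with mesalazine (edgeR adjusted p = 0.00936) and by 3.46 ± 0.32 with Kuiyangling (edgeR adjusted p = 0.00742). Ciart, a repressor of the clock, rose by 3.25 ± 0.51 with mesalazine and 3.23 ± 0.51 with Kuiyangling (edgeR adjusted p = 0.0312 and 0.0429). Tef, a relative of Dbp, rose by 1.75 ± 0.29 with mesalazine (edgeR adjusted p = 0.0334). Arntl, which encodes the clock activator BMAL1 and is the older symbol of Bmal1, fell by 2.19 on the log2 scale, with an SE of 0.35 (edgeR adjusted p = 0.0312). Every one of these edgeR calls was lost without control replicate 2, with edgeR adjusted p of 0.0708 to 0.238. For mesalazine against controls, Ciart was also lost without control replicate 1 or mesalazine replicate 1, Arntl without mesalazine replicate 1 or either DSS model library, and Tef without any library other than mesalazine replicate 2. For Kuiyangling against controls, Dbp was also lost without Kuiyangling replicate 1, and Ciart without any library of the controls, the DSS model or Kuiyangling. The fitted changes kept their sign under all 16 alternatives.

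The group means of Dbp, Ciart and Depp1 were in the same order, mesalazine highest, then Kuiyangling, the DSS model and controls. Between mesalazine and Kuiyangling the libraries of Dbp and Ciart overlapped, with means of 32.1 and 31.8 CPM for Dbp and 6.41 and 6.35 for Ciart, while those of Depp1 did not. Between the DSS model and controls the libraries of Depp1 overlapped and those of Dbp did not. The part of the hour of sampling in the levels of the 9 genes was not tested.

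The genes most like Depp1 were sought among the 10201 genes that averaged 5 CPM or more, by Pearson correlation of log2 CPM over the 8 libraries. The points share their libraries and fall into 4 groups of 2, so these values describe a pattern only, and 25 genes had r above 0.9. Aspg, an asparaginase, came first at r = 0.98 and held 52.5 and 46.0 CPM in controls, 50.6 and 48.0 under DSS alone, 118 and 111 with mesalazine, and 88.7 and 67.4 with Kuiyangling. Tmem86a, a membrane protein, followed at r = 0.96 with 19.6 and 10.5 CPM after mesalazine and 2.92 to 6.93 elsewhere. Then came the predicted gene Gm45871 and the receptor Fgfrl1 at 0.95 each, the fatty acid hydroxylase Cyp4v3 at 0.95 and AW209491 at 0.94. All 6 were highest in the 2 mesalazine libraries, and all but Gm45871 had the 2 Kuiyangling libraries next. Among the other 8 genes of the list, Angptl4 had r = 0.88 with Depp1 and Fkbp5 0.80. Zbtb16 had 0.47, Sgk1 0.25, Klf9 -0.09, Pdk4 -0.36, Tsc22d3 -0.43 and Cpt1a -0.62. Pdk4 and Tsc22d3, the genes high in controls only, had r = 0.88 with each other.

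**Figure D4:**
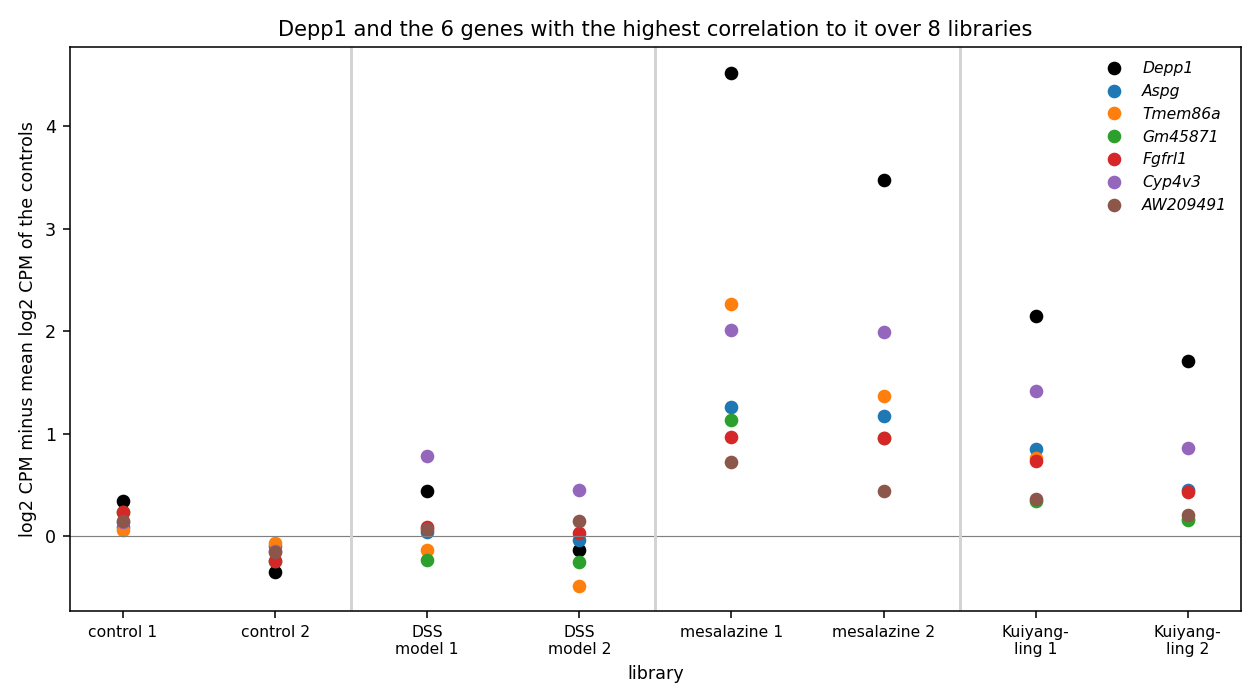
Log2 CPM of Depp1 (black) and of the 6 genes most correlated with it, minus the mean of the 2 controls (y axis), in each of the 8 libraries (x axis). All 7 genes are highest in the mesalazine libraries, and Depp1 spans the widest range.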

How the data were processed

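RNA of colonic mucosa was sequenced as 8 libraries, 2 per group. The labels' protocols name the mirVana kit for extraction and a stranded TruSeq mRNA kit for libraries. The deposited counts are whole reads per gene made by the authors, and the submitters' processing notes name Trimmomatic and HISAT2 without version. Build, annotation, read counter and strandedness are not given in the sources used here. Dividing the deposited counts by total and gene length gave back the authors' FPKM, checked on 11707 genes. The second mesalazine column was matched by its number, its group name being misspelled.

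Genes that passed filterByExpr were fitted with edgeR 4.0.16 (R 4.3.3), TMM scaling and quasi-likelihood F tests over all 8 libraries, with Benjamini-Hochberg adjustment over 13381 genes. The SE is the log2 change divided by the root of its F value. CPM use TMM-adjusted library sizes, and log2 CPM a prior count of 2. Depth limits the precision of low genes: control replicate 2 holds 13 reads of Depp1 and DSS model replicate 2 holds 2 of Zbtb16. The p-values of this fit rest on the spread between 2 animals per group, pooled over the 4 groups. That spread is moderated by information from all genes, with 6.02 prior degrees of freedom. The common biological coefficient of variation was 0.287.

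The 9 genes and all lists were chosen with earlier results of these data known. Named genes were the 9, their listed regulators and relatives, the called genes of each other list (up to 4 a comparison, else the 2 with the smallest p) and the 6 most correlated with Depp1. Genes named beyond this, such as the marker genes, were chosen after their values were seen. Alternatives were DESeq2 1.42.0, RLE scaling, no filter, the 4 libraries of a comparison, leaving out each library, a replicate block, limma 3.58.1 on log2(FPKM + 1) or log2(FPKM + 0.1), and a gene length offset. The fit was tested on counts simulated from its own fitted spread, with no library set apart and no trend with gene length, unlike these data. For mesalazine against the DSS model it called 14.3% of genes changed 2-fold, 78% of those changed 4-fold and 98% of those changed 8-fold. Of 12977 unchanged genes it called 10.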

Additional observations from a re-analysis of the deposited data

How the results depend on the processing

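Of 863 recomputed log2 changes of the 9 genes, 815 kept their sign, and 33 of the 54 changes kept it in every one of 16 settings. Depp1 for mesalazine against the DSS model was 2.77 by limma on log2(FPKM + 1) and 3.26 to 4.32 with 1 library left out, and for Kuiyangling against the DSS model it was 1.16 by that limma fit. For mesalazine against controls Depp1 was 3.46 with the gene length offset and 2.76 by that limma fit. Of the 9 genes, DESeq2 called 3 for the DSS model against controls, 2 for mesalazine against the DSS model, 4 for mesalazine against controls and 3 for Kuiyangling against controls, where it called 2.97%, 0.641%, 7.19% and 2.33% of all genes. With no filter on low counts, edgeR called 4, 2, 4 and 3 in the same comparisons, and 2.81%, 0.599%, 6.28% and 2.6% of all genes. Calls over all genes also changed with the setting, so counts of the 9 are not read as a result about them. For mesalazine against controls, limma on log2(FPKM + 1) called 0 of the 9 and 0 of all genes. From the 4 libraries of that comparison alone, the log2 change was 4.04 for Depp1 and -1.91 for Pdk4. For mesalazine against controls Depp1 was 3.73 without control replicate 2, 3.41 without mesalazine replicate 1 and 4.45 without mesalazine replicate 2. Genes called from the other lists numbered 0, 0, 0, 5 and 3 for the DSS model against controls, mesalazine against the DSS model, Kuiyangling against the DSS model, and mesalazine and Kuiyangling against controls. DESeq2 made these 12, 7, 2, 18 and 11, and no filter made them 14, 7, 1, 21 and 11. The 4 libraries of the comparison gave 2 for Kuiyangling against the DSS model and 13 for mesalazine against controls. By limma on log2(FPKM + 1), 0 were called for mesalazine and 0 for Kuiyangling against controls, and on log2(FPKM + 0.1) 2 for mesalazine. Leaving out 1 library gave 0 to 5 for the DSS model, 0 to 29 for mesalazine and 0 to 7 for Kuiyangling against controls. The cause was not tested. The deviations of same-numbered libraries from their group means correlated between -0.31 and 0.16 over the 6 pairs of groups. With 2 libraries per group, these values cannot settle whether the replicate numbers pair the animals. With a replicate block, Depp1 for mesalazine against the DSS model was 3.84 (edgeR adjusted p = 0.0600), and 1 of the 9 genes was called for mesalazine against controls, as without it. Over all genes the block moved the calls from 33 to 50 for the DSS model, from 90 to 132 for mesalazine and from 32 to 65 for Kuiyangling, each against controls, and it stayed at 0 in the other 3 comparisons. Over all 16 settings these counts ran from 1 to 487 for the DSS model, 0 to 2717 for mesalazine and 0 to 451 for Kuiyangling against controls, 0 to 104 for mesalazine and 0 to 21 for Kuiyangling against the DSS model, and 0 to 3 between the treatments. The 2 limma scales shift the median of all genes by up to -0.20 on the log2 scale, and no fitted change of a called gene turned sign.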
